A study of Mus musculus with 16 samples.

Results

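Penk and 8 other genes that mark the projection neurons of the striatum were followed in RNA from the whole brain of Tecpr2 knock-in mice and their controls. The 9 genes were given as a list and matched by Ensembl identifier and symbol, and all 9 were found among the 55404 genes of the table and passed the filter on low values. They are Penk, Drd2 and Adora2a of the indirect pathway, Pdyn, Tac1 and Drd1 of the direct pathway, and Ppp1r1b, Rgs9 and Pde10a, which both kinds of neuron share. Penk had been picked because its level differed between the genotypes in these same mice, and the list was drawn up around it with those results known. The genotype values of these 9 genes are therefore a description and are given without a test of their own.

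RNA of 8 Tecpr2 ki/ki mice, homozygous for the L1152Yfs frameshift (labelled L1152fs knock-in), and of 8 wt/wt mice with the unedited gene was sequenced, with 1 library per mouse. All mice were untreated males of 5 months, and the allele had been made by CRISPR/Cas9 editing of C57BL/6 J zygotes. The template also carried a silent change for genotyping. The allele is present in all cells of the body, so the model does not single out striatal neurons, and the labels give whole brain and no region as the tissue. In bulk RNA of this kind, fewer cells of a type and less RNA per cell cannot be told apart.

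The striatum is the main input station of the basal ganglia, and most of its neurons are GABAergic projection neurons. Those of the indirect pathway carry the dopamine D2 receptor and the adenosine receptor encoded by Adora2a and make enkephalin, whereas those of the direct pathway carry the dopamine D1 receptor and make dynorphin and substance P. Dopamine acts on both through cAMP, raising it through D1 and lowering it through D2 receptors. Penk is also transcribed in other places, among them the hypothalamus, hippocampus and brainstem, so its level in whole brain is not purely striatal.

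Penk (ENSMUSG00000045573) encodes proenkephalin, a precursor that is cut at pairs of basic residues to release several opioid pentapeptides. It lies on the minus strand of chr4:4133531-4138819 in GRCm38, the build of the annotation used here and an earlier one than the GRCm39 of the authors' alignment. The 804 coding bases of transcript Penk-201 in GENCODE M21 hold the codons of 7 enkephalin copies, 6 of Met-enkephalin and 1 of Leu-enkephalin. The sequences show the codons of each copy in a single Penk transcript, not the peptides released from it. Capitals mark the 15 bases that encode the pentapeptide, and the 6 bases on either side are in lower case.
Met-enkephalin, copy 1: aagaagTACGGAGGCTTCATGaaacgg
Met-enkephalin, copy 2: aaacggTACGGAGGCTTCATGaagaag
Met-enkephalin, copy 3: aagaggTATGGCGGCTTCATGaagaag
Met-enkephalin, copy 4: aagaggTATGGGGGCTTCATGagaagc
Met-enkephalin, copy 5: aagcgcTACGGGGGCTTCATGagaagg
Leu-enkephalin, copy 6: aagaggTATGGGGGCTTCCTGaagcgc
Met-enkephalin, copy 7: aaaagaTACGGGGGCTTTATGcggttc
In 5 of the 7 copies, both flanks encode a pair of basic residues. Copies 4 and 7 have such a pair before them but not directly after them. The 7 copies use 6 different codings. The first copy lies at chr4:4134334-4134348 and the last at chr4:4133848-4133862. For comparison, the coding sequence of Pdyn, the dynorphin precursor gene of the direct pathway, holds 3 copies of Leu-enkephalin and 0 of Met-enkephalin. They are shown because they form the amino-terminal part of the opioid peptides of the other pathway.
Pdyn, copy 1: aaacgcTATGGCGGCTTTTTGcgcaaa
Pdyn, copy 2: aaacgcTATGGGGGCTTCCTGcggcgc
Pdyn, copy 3: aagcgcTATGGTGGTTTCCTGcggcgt
All 3 lie between a pair of basic codons on either side, in transcript Pdyn-201 on the minus strand of chr2:129686565-129699844.

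The deposited values are linear normalized values, rounded to whole numbers, and their normalization was not named. The totals of the 16 libraries lay between 11964284 and 12252324 and no longer carry the sequencing depth. Tecpr2 itself was at 274 to 320 in ki/ki and at 928 to 1002 in wt/wt mice, so each library carried the level of its label. No library stood apart, with median correlations to the other libraries between 0.995 and 0.996, and no pair of mice differed by as little as counting noise (median ratio of observed to counting variance 2.38 over 120 pairs).

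In GRCm38, the other indirect pathway genes are Drd2 (ENSMUSG00000032259, plus strand of chr9:49340627-49408177) and Adora2a (ENSMUSG00000020178, plus strand of chr10:75316877-75334784). The direct pathway genes are Pdyn (ENSMUSG00000027400, placed above), Tac1 (ENSMUSG00000061762, plus strand of chr6:7554879-7565834) and Drd1 (ENSMUSG00000021478, minus strand of chr13:54051183-54055705). The shared genes are Ppp1r1b (ENSMUSG00000061718, plus strand of chr11:98348404-98357796), Rgs9 (ENSMUSG00000020599, minus strand of chr11:109225355-109298129) and Pde10a (ENSMUSG00000023868, plus strand of chr17:8525372-8986648).

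All 9 genes were well above the filter on low values in every mouse, the lowest single value being 181 for Pdyn. Per kilobase of exon, the wt/wt level of Penk was the highest at 744 ± 35.8 (SD, n = 8). Ppp1r1b, which encodes the dopamine- and cAMP-regulated phosphoprotein DARPP-32, followed at 411 ± 14.7 per kilobase, and Pde10a, a cAMP and cGMP phosphodiesterase, at 240.1 ± 12.9 per kilobase. These first 3 genes did not overlap with each other or with the next. Rgs9, a regulator that ends G protein signaling, was at 105 ± 4.35 and Drd1 at 104 ± 6.66 per kilobase, and Drd2 was at 93.7 ± 3.27 and Adora2a at 87.9 ± 7.01 per kilobase. The precursor genes of the direct pathway were lowest, Pdyn at 72.4 ± 5.00 and Tac1 at 62.5 ± 6.17 per kilobase. From Rgs9 downward, the ranges of neighbors in this order overlapped. All other values below are normalized values per gene, not per kilobase.

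All 9 genes had a lower mean in ki/ki than in wt/wt mice. Over the 23244 genes tested in the genotype comparison, 50.5% had a log2 fold change below 0, and over the 11241 genes with a mean value of at least 100 the share was 54.8%. The median log2 fold change was -0.10 for the 9 genes, against -0.00098 for all genes tested. With limma (variance trend, robust; Benjamini-Hochberg adjustment over all genes) and a threshold of 0.1 on the adjusted p, 1 of the 9 genes was called, Penk, and 0.0387% of all genes tested were called as lower and 0.0946% as higher. Without the variance trend and the robust estimate this call was not made. At an unadjusted limma p under 0.05, 4 of the 9 genes (Penk, Adora2a, Drd1 and Rgs9) were lower in ki/ki mice, where 3.01% of all genes were. The choice of the genes rests on the same contrast, so nothing is read from these counts.

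**Figure D1:**
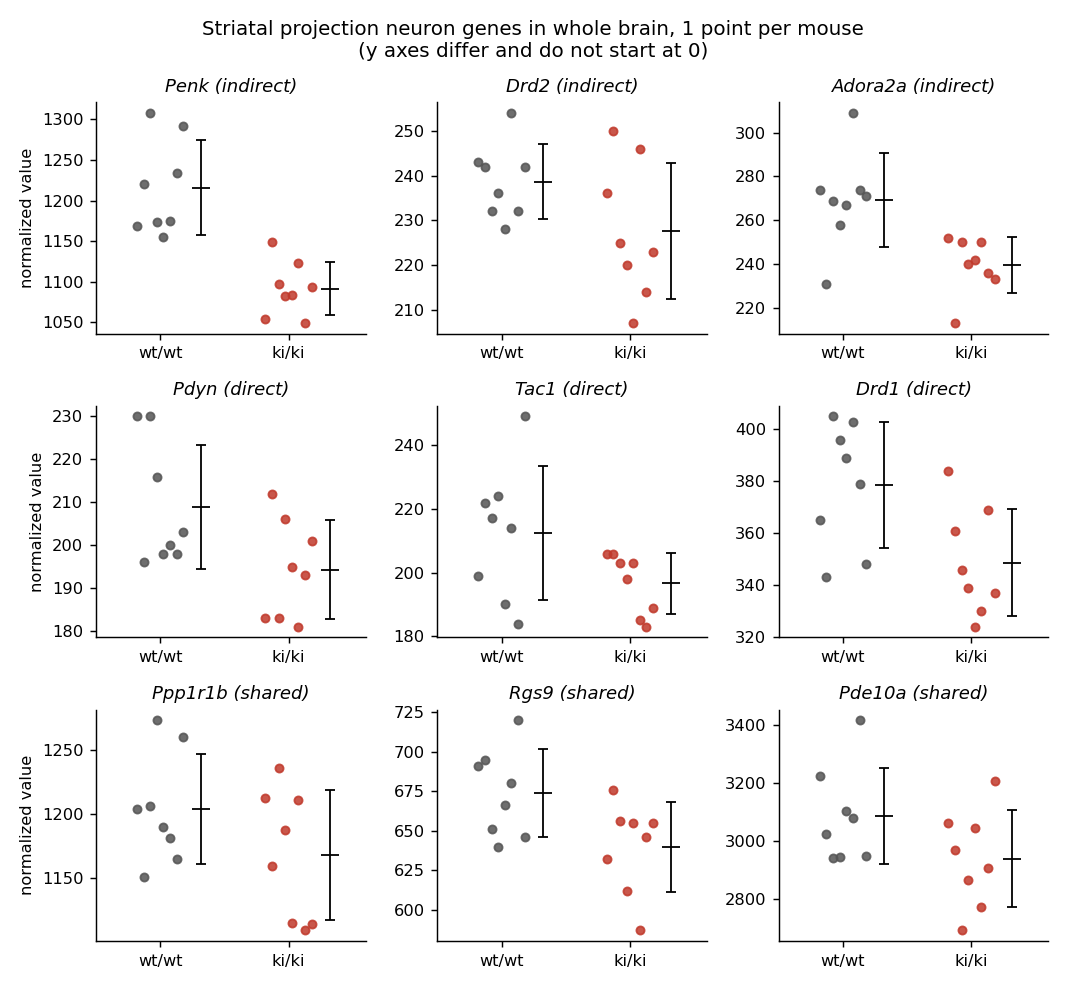
Normalized values (y axes, which differ between panels and do not start at 0) of the 9 striatal genes in the 8 wt/wt mice (grey) and the 8 ki/ki mice (red), 1 point per mouse, with mean ± SD beside the points. Only in the panel of Penk do the genotypes not overlap, at 1049 to 1149 in ki/ki and 1155 to 1308 in wt/wt mice.

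Among the indirect pathway genes, Penk had values from 1049 through a median of 1089 to 1149 in ki/ki mice and from 1155 through 1197.5 to 1308 in wt/wt mice. Every ki/ki mouse lay below every wt/wt mouse, which held for 0.0215% of all genes tested, and the genotypes did not overlap in either direction for 0.086%. The 2 ranges nearly touched, with 1149 in the highest ki/ki and 1155 in the lowest wt/wt mouse. The mean was 1092 ± 33.1 in the 8 ki/ki mice and 1216 ± 58.5 (SD) in the 8 wt/wt mice, so that the ki/ki mean was 89.8% of the wt/wt mean (log2 fold change -0.15, SE 0.0286).

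Adora2a, the gene of the receptor through which adenosine opposes D2 signaling in the same neurons, ran from 213 through a median of 241 to 252 in ki/ki mice. In wt/wt mice it ran from 231 through 270.0 to 309. All but 1 of the wt/wt mice lay above the highest ki/ki mouse, the exception being the wt/wt mouse at 231, and all 8 ki/ki mice lay below the wt/wt median. Its log2 fold change was farther from 0 than that of Penk and had a wider error (-0.17, SE 0.0527), with a ki/ki mean of 89.0% of the wt/wt mean.

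Drd2, the gene of the D2 receptor, was between 207 and 250 in ki/ki mice (median 224) and between 228 and 254 in wt/wt mice (median 239). In 5 ki/ki mice it lay below all wt/wt mice, while the other 3 were at 236 to 250 and thus inside the wt/wt range. Its log2 fold change was -0.07 (SE 0.0524).

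The direct pathway genes had lower means in ki/ki mice with overlapping ranges. Pdyn was between 181 and 212 in ki/ki mice (median 194) and between 196 and 230 in wt/wt mice (median 201.5), and its log2 fold change was -0.10 (SE 0.0570). For Tac1, which encodes the precursor of substance P and neurokinin A, ki/ki mice were between 183 and 206 (median 200.5) and wt/wt mice between 184 and 249 (median 215.5). The lower ends of both ranges coincided, and the 5 wt/wt mice above 206 set the groups apart (log2 fold change -0.11, SE 0.0586). Drd1, the gene of the D1 receptor, had values of 324 to 384 in ki/ki mice (median 342.5) and 343 to 405 in wt/wt mice (median 384). With a log2 fold change of -0.12 (SE 0.0453) it was the direct pathway gene farthest from 0, and 4 ki/ki mice lay below all wt/wt mice.

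The genes shared by both pathways had the log2 fold changes nearest to 0 as a group. Drd2 of the indirect pathway, at -0.07, was as near to 0 as Rgs9 and Pde10a. Ppp1r1b was between 1109 and 1236 in ki/ki mice (median 1173) and between 1151 and 1273 in wt/wt mice (median 1197). Its log2 fold change of -0.04 (SE 0.0283) was the smallest of the 9. Rgs9 was between 587 and 676 in ki/ki mice (median 650.5) and between 640 and 720.0 in wt/wt mice (median 673), with a log2 fold change of -0.07 (SE 0.0345). Pde10a was between 2692 and 3206 in ki/ki mice (median 2938) and between 2942 and 3418 in wt/wt mice (median 3052), with a log2 fold change of -0.07 (SE 0.0378). For these 3 genes between 3 and 4 ki/ki mice lay below all wt/wt mice.

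The median log2 fold change was -0.15 for the indirect, -0.11 for the direct and -0.07 for the shared genes. The indirect median is the value of Penk itself, the gene picked on this contrast. Without Penk, the mean log2 level of the indirect genes differed by -0.12 between the genotypes. That of the direct genes differed by -0.11. Within a mouse, the groups were set against each other by their mean log2 levels. The mean log2 level of the indirect minus the direct genes was 0.72 ± 0.0716 (SD) over the 8 ki/ki mice and 0.74 ± 0.0654 (SD) over the 8 wt/wt mice, and 0 ki/ki mice lay below all wt/wt mice. Indirect minus shared was -1.73 ± 0.0562 (SD) in ki/ki and -1.67 ± 0.0587 (SD) in wt/wt mice, a difference of -0.07, and 5 ki/ki mice lay below all wt/wt mice. Direct minus shared was -2.45 ± 0.0371 (SD) in ki/ki and -2.40 ± 0.0900 (SD) in wt/wt mice, a difference of -0.05, and 0 ki/ki mice lay below all wt/wt mice. These differences rest on the contrast that chose the genes and were not tested. Penk set against the mean log2 level of the other 8 genes was 1.29 ± 0.0485 in ki/ki and 1.35 ± 0.0733 in wt/wt mice, a difference of -0.06 where Penk alone differed by -0.15. Only 2 ki/ki mice then lay below all wt/wt mice. The summed value of the 9 genes was between 6885 and 7252 in ki/ki and between 7324 and 7804 in wt/wt mice. Without Penk the sums overlapped, at 5762 to 6169 in ki/ki and 6104 to 6570.0 in wt/wt mice. Since the genes were chosen on this contrast, the separation of the sums carries no test.

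**Figure D2:**
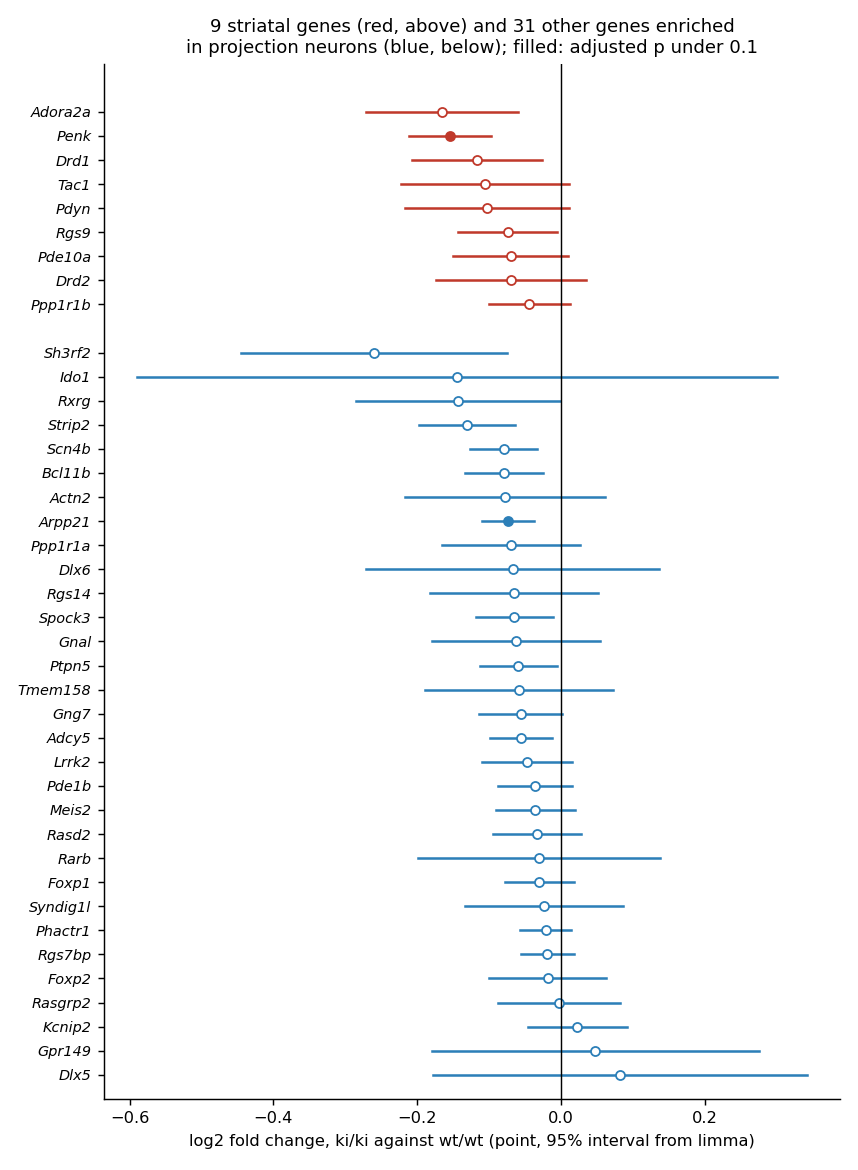
Log2 fold changes of ki/ki against wt/wt mice (x axis; points with 95% intervals from limma) for the 9 striatal genes (red) and 31 other genes enriched in striatal projection neurons (blue), with filled points at an adjusted p under 0.1. All 9 red points and 28 of 31 blue points lie below 0, and Penk and Arpp21 are filled.

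Whether the 9 genes also moved together from mouse to mouse within a genotype does not depend on the contrast that chose them, so it was tested. After the mean of each genotype was removed, the 36 pairs had Pearson correlations between -0.608 and 0.601 over the 16 mice, with a median of 0.0118, and 18 of the 36 were above 0. None of the 36 pairs had an adjusted p under 0.05 (two-sided permutation tests with mice shuffled within genotypes, 100000 resamples, Benjamini-Hochberg over 36 pairs), and 3 had an unadjusted permutation p under 0.05. Spearman's rho also gave 0 pairs under 0.05 after adjustment. Most of the genes spread within a genotype about as much as counting alone would give to unscaled counts (below). Shared variation could hardly show over such a spread with 16 mice, so nothing is concluded from the 0 pairs.

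The 3 pairs were all among the shared genes. Rgs9 and Pde10a varied together (r = 0.601, permutation p = 0.0184, adjusted 0.225; rho = 0.575, permutation p = 0.0263, adjusted 0.473), and r was 0.375 within ki/ki and 0.869 within wt/wt mice. Without the 2 mice farthest from the median of Rgs9, r was 0.504. Ppp1r1b went against both, with r = -0.602 to Rgs9 (permutation p = 0.0187, adjusted 0.225; rho = -0.511, permutation p = 0.0494, adjusted 0.559) and r = -0.608 to Pde10a (permutation p = 0.0182, adjusted 0.225; rho = -0.591, permutation p = 0.0244, adjusted 0.473). Within ki/ki and wt/wt mice these were -0.434 and -0.831 for Rgs9 and -0.649 and -0.557 for Pde10a. Without the 2 mice farthest from the median of Ppp1r1b they were -0.704 and -0.462. All 3 pairs missed the threshold after adjustment.

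**Figure D3:**
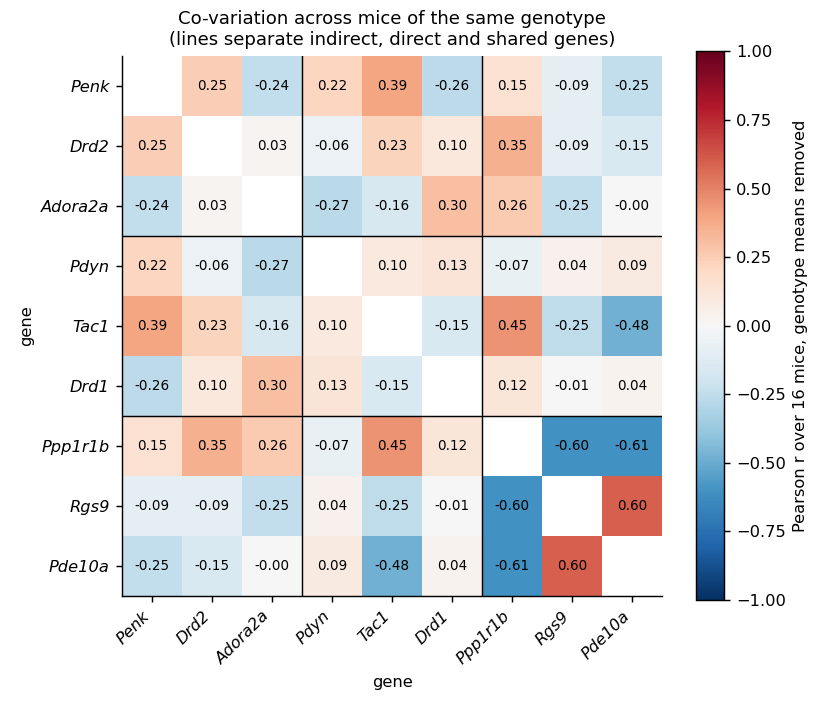
Pearson correlations (color and printed value) of log2 levels between the 9 striatal genes over the 16 mice after the mean of each genotype was removed, ordered as indirect, direct and shared genes. No block of a pathway stands out, and the strongest values are those among Ppp1r1b, Rgs9 and Pde10a at -0.61 to 0.60.

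Penk correlated with the other 8 genes between -0.261 (Drd1) and 0.394 (Tac1). The correlation with Tac1 did not pass the test (permutation p = 0.204, adjusted 0.836; rho = 0.340, permutation p = 0.244, adjusted 0.797) and was 0.128 without the 2 mice farthest from the median of Penk. With Adora2a of the same pathway it was -0.244 (permutation p = 0.433, adjusted 0.908; rho = -0.0457, permutation p = 0.873, adjusted 0.973). The mice of a genotype spread little. In 16 of the 18 combinations of gene and genotype the SD was between 0.539 and 1.68 times the square root of the mean, the spread that counting alone would give to unscaled counts of this size. Pde10a was the exception, at 3.07 in ki/ki and 2.99 in wt/wt mice.

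Among all 11240 other genes with a mean value of at least 100, those most like Penk across the 16 mice, genotype means removed, were Nme1 (r = 0.922), Rasd2 (r = 0.814), Slc50a1 (r = 0.804), Acadl (r = 0.803) and S100pbp (r = 0.800). These are the highest of many values from 16 mice and were not tested. Rasd2, a small GTPase enriched in the striatum, was the only striatal gene of the lists among them. Its own log2 fold change was -0.03. Over 38 striatal genes, the correlation with Penk ranged from -0.654 (Bcl11b) to 0.814 (Rasd2) with a median of 0.0915, and over all genes the median was 0.0377.

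Other genes of striatal projection neurons were taken from lists that had been drawn up with earlier results known. Of 31 genes enriched in both kinds of projection neuron, 28 had a log2 fold change below 0 (median -0.06). This held for 50.5% of all genes tested and 54.8% of those with a mean value of at least 100. Some other neuronal lists leaned likewise, with 18 of 20 activity-regulated, 7 of 8 pan-neuronal and 11 of 14 cortical and hippocampal genes below 0. Of striatal interneuron genes 5 of 12 were below 0, and of cerebellar genes 6 of 11. By limma, 1 of the 31 was called as lower and 0 as higher, beside 0.0387% and 0.0946% of all genes. At an unadjusted limma p under 0.05, 9 of the 31 were lower and 0 higher, and 3.01% of all genes were lower. Arpp21, a cAMP-regulated phosphoprotein gene that cortical neurons express as well, was between 3809 and 4078 in ki/ki mice (median 3952) and between 4030 and 4323 in wt/wt mice (median 4130.0). All but 1 of the ki/ki mice were below all wt/wt mice, and Arpp21 fell by 0.07 on the log2 scale (SE 0.0181, limma with Benjamini-Hochberg adjusted p = 0.0883). The call was near the threshold. It was not made in 12 of the 16 fits that left out 1 mouse (limma adjusted p up to 0.230), namely those without 1 of mice 2, 3, 5, 6, 7 and 8 of the ki/ki group, or of mice 1, 2, 3, 5, 7 and 8 of the wt/wt group. It was not made either without the filter on low values (limma adjusted p = 0.103), with libraries scaled to the same total (0.142) or without the variance trend and the robust estimate (0.705). Over all 24 alternatives the adjusted p ranged from 0.0589 to 0.705.

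The next genes of this list by p were Strip2, Scn4b and Bcl11b. Strip2 was at 747 ± 37.0 in ki/ki and at 817.5 ± 36.1 (SD, 8 mice each) in wt/wt mice and missed the threshold (log2 fold change -0.13, SE 0.0333, limma with Benjamini-Hochberg adjusted p = 0.130). Scn4b, a sodium channel subunit gene, was at 2047 ± 79.5 (SD, n = 8) against 2163 ± 62.2 (SD, n = 8), with a log2 fold change of -0.08 (SE 0.0235, limma with Benjamini-Hochberg adjusted p = 0.307). Bcl11b was at 1240.5 ± 43.7 against 1311 ± 47.6 (log2 fold change -0.08, SE 0.0272, limma with Benjamini-Hochberg adjusted p = 0.522). It encodes CTIP2, and the paper counted fewer CTIP2-positive neurons in the cortex of ki/ki mice, so its value is not purely striatal. Of the genes with the highest values in the list, Phactr1 had a log2 fold change of -0.02 and Rgs7bp also of -0.02.

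Genes that mark 1 of the pathways among striatal neurons did not all lie on the side of the 9 genes. In whole brain their values are not purely striatal, so they are not read as levels of a pathway. Of 5 other indirect pathway genes tested, 3 were below 0 and 0 were called by limma, also at an unadjusted p under 0.05. Gpr6, a receptor gene of indirect pathway neurons, was at 58.8 ± 5.39 in ki/ki and at 65 ± 8.94 (SD, 8 mice each) in wt/wt mice (log2 fold change -0.14, SE 0.101), and the values of Ttc12 (0.19, SE 0.151), Grik3 (-0.02, SE 0.0253) and Six3 (-0.05, SE 0.0842) spread to both sides. Of 6 other direct pathway genes, 2 were below 0, 0 were called by limma, also at an unadjusted p under 0.05, and the median log2 fold change was 0.0039. Here Sfxn1 was at 0.06 (SE 0.0405), Eya1 at 0.09 (SE 0.0684), Isl1 at -0.15 (SE 0.146), Slc35d3 at -0.07 (SE 0.109) and Ebf1 at 0.0049 (SE 0.0559) on the log2 fold change scale.

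Enkephalin, dynorphin and substance P act on opioid and tachykinin receptors and are cut from their precursors by prohormone convertases. Of 16 tested genes for these receptors, enzymes and related peptides, limma called 0, with 9 below and 7 above 0 and with 2 higher and 2 lower at an unadjusted p under 0.05. Oprm1, the mu opioid receptor gene, was at 139 ± 13.6 in ki/ki and at 138.5 ± 6.57 (SD, 8 mice each) in wt/wt mice, and the delta receptor gene Oprd1 at 215.9 ± 15.2 against 209.5 ± 21.2. The kappa receptor gene Oprk1, whose ligand is dynorphin, was at 125 ± 11.7 against 140.0 ± 12.5 (log2 fold change -0.16, SE 0.0717, limma with Benjamini-Hochberg adjusted p = 0.775). Among the enzymes, Pcsk1 was at 553 ± 38.9 against 587 ± 39.7 and Pcsk2 at 2991 ± 119.5 against 3068 ± 52.5. Cpe, the carboxypeptidase that trims the cut peptides, was at 10908 ± 173 in ki/ki and 10602 ± 220 in wt/wt mice, on the other side of 0 (log2 fold change 0.04, SE 0.0137, limma with Benjamini-Hochberg adjusted p = 0.497). Anpep, an aminopeptidase gene, had a log2 fold change of 0.21 (SE 0.104).

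Of 21 tested genes of dopamine and adenosine signaling outside the 9, limma called 0, with 1 higher and 1 lower at an unadjusted p under 0.05. Of these genes 13 were below and 8 above 0 (median log2 fold change -0.02). Th and Ddc encode enzymes of dopamine synthesis, but whole brain RNA does not place them in the midbrain neurons that project to the striatum. Th was at 83.2 ± 12.3 against 77.4 ± 7.84 in ki/ki and wt/wt mice. Ddc was at 141 ± 12.9 against 121 ± 16.8 and lay higher (log2 fold change 0.23, SE 0.0766, limma with Benjamini-Hochberg adjusted p = 0.513). The dopamine transporter gene Slc6a3 was at 101 ± 8.86 against 100 ± 15.7 (log2 fold change 0.03, SE 0.0857). Slc18a2, the vesicular monoamine transporter gene, had a log2 fold change of -0.05 (SE 0.0528). Gnb5, which encodes the binding partner of the Rgs9 protein, was at 816 ± 34.2 against 856 ± 42.1 (log2 fold change -0.07, SE 0.0323). The D3 receptor gene Drd3 was low in both genotypes, at 8.88 ± 3.83 against 12.1 ± 4.09. The phosphatase gene Ppp1ca had a log2 fold change of -0.06, and the kinase subunit genes Prkacb and Prkar1b, the highest of the list, of -0.03 and -0.01.

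Some markers of astrocytes and microglia were higher in ki/ki mice. Of 8 astrocyte genes 3 were called as higher, Gfap, Aqp4 and Slc1a2, beside 0.0946% of all genes tested, and 7 were above 0. Gja1, Aldh1l1 and Vim were not called, with log2 fold changes of -0.0048, 0.04 and 0.04. The summed value of the list was between 63784 and 66156 in ki/ki and between 60095 and 63499 in wt/wt mice. Most of it was Slc1a2, with means of 45610 in ki/ki and 43648 in wt/wt mice. Of 8 microglia genes 2 were called as higher, C1qa and C1qb, and 5 were higher at an unadjusted limma p under 0.05. Aif1, Csf1r and Tmem119 were not called, with log2 fold changes of -0.0058, 0.02 and 0.05. The microglia sums were between 2348 and 2545 in ki/ki and between 2078 and 2317 in wt/wt mice. Of 8 pan-neuronal genes limma called 0 (2 were lower at an unadjusted p under 0.05), 7 were below 0 with a median log2 fold change of -0.03, and the sums overlapped at 60103 to 62646 and 60240.0 to 64411. No listed gene of these lists was at 0 in all mice. The part of the glial genes in the values of the striatal genes was not tested.

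**Figure D4:**
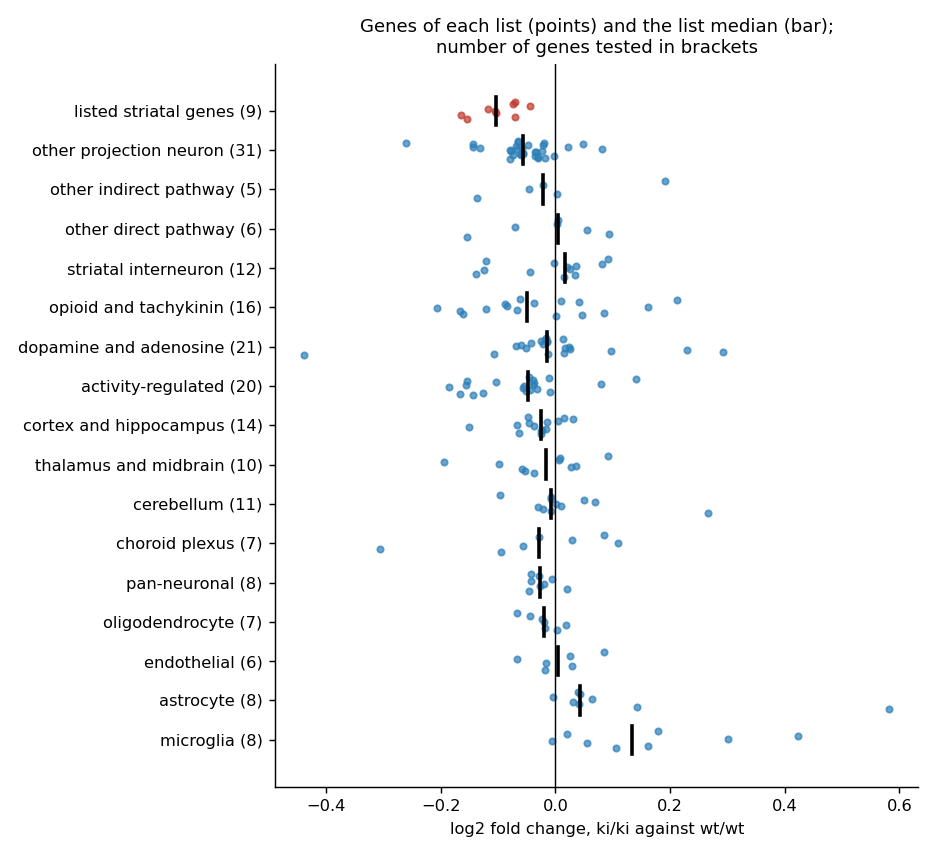
Log2 fold changes of ki/ki against wt/wt mice (x axis) for the 9 striatal genes (red) and the genes of 16 other lists (blue), 1 point per gene, with a black bar at the list's median and the number of genes tested in brackets. The striatal genes have a median of -0.10, the other projection neuron genes of -0.06, and the microglia genes, at the other end, of 0.13.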

How the data were processed

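Per the labels and the study's methods, stranded total RNA reads depleted of ribosomal RNA were trimmed with Trim Galore 0.6.10 and cutadapt 3.4, aligned to GRCm39 with STAR 2.7.10b and counted per gene, and the authors tested genes with DESeq2 1.40.2. The deposited values are a score, namely linear normalized values rounded to whole numbers by the authors. The tables of the 16 single mice were identical to the columns used. Symbols were found for 52017 of 55404 genes, and positions, exon lengths and coding sequences were taken from GENCODE M21 (GRCm38).

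Genes with a sum above 16 and a value above 5 in at least 4 mice of a genotype were tested with limma 3.58.1 in R 4.3.3 on log2(value + 1), which understates the change of low genes. Steps were tested on simulated data. Python 3.11.15, numpy 2.4.6, scipy 1.17.1, pandas 2.3.3, Biopython 1.88 and matplotlib 3.10.9 served for the rest. No depth or counting interval could be derived from normalized values, and no count test was run. The limma p-values set the genotype difference against the spread between mice, with each gene's variance drawn toward that of genes at a similar level. The permutation p-values refer to correlations across mice within genotypes. The 9 genes and all lists were chosen with earlier results of these data known. Besides the 9 genes, Tecpr2 and the 5 genes most like Penk, the text names genes of the lists with an adjusted p under 0.1 and, in the striatal, opioid and dopamine lists, up to 4 with the smallest p and the 2 with the highest values. Oprm1, Oprd1, Th, Slc6a3 and Slc18a2 were named for their roles after their values had been seen. A listed gene is not reported here and was left out of its list's counts.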

Additional observations from a re-analysis of the deposited data

How the results depend on the processing

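Under 24 alternatives (8 settings of pseudocount, filter, scaling, variance model and replicate block, and 16 that left out 1 mouse each), all 216 log2 fold changes of the 9 genes stayed below 0. These are refits of the same 9 comparisons on the same or nearly the same mice. The genes were chosen on this contrast, so their shared sign is no support of its own. Penk stayed between -0.17 and -0.14 and was called in 23 of 24. Without the variance trend and the robust estimate its log2 fold change was -0.15 with a limma adjusted p of 0.203, so that 0 of the 9 genes were called. The other 8 genes were called in no alternative. With single mice left out Penk ranged from -0.17 to -0.14 and 1 of the 9 genes was called each time.

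The count of all genes called, 31 (22 higher, 9 lower), was 16 (13 higher, 3 lower) without trend and robust estimate and 20 (4 lower) without the filter. With each mouse left out it ranged from 25 to 40 (19 to 26 higher, 4 to 14 lower). The lower genes numbered 5 without ki/ki mouse 2, 14 without wt/wt mouse 2, 4 without wt/wt mouse 3 and 5 without wt/wt mouse 5. With the replicate number as a block, 46 genes were called (29 higher, 17 lower) and the call of Penk was the same. The deviations of same-numbered mice had correlations from -0.0501 to 0.152 over 8 pairs, over 0.1 in 1. Differently numbered mice were not compared, so whether the numbers pair the mice was not settled. The median correlation of the 36 pairs stayed between -0.0203 and 0.0319 under the alternatives run for it. Sequencing depth per library is not known from these values.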

Other observations

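Genes of other brain regions and neurons in the same libraries gave 0 calls in either direction, with limma at an adjusted p under 0.1. Of 12 striatal interneuron genes 5 were below 0 and the median log2 fold change was 0.02, and 1 was lower at an unadjusted limma p under 0.05. The median was -0.03 for 14 genes of cortical and hippocampal excitatory neurons, -0.02 for 10 thalamic and midbrain genes and -0.04 for 10 tested hypothalamic genes. It was -0.01 for 11 cerebellar genes, 0.10 for 9 tested brainstem genes and -0.03 for 6 tested olfactory bulb genes. In the same order of lists, 11 of 14, 5 of 10, 8 of 10, 6 of 11, 3 of 9 and 3 of 6 genes were below 0. The summed value of the hypothalamic genes was between 187 and 239 in ki/ki and between 213 and 285 in wt/wt mice. The summed value of the cortical and hippocampal list overlapped, at 16697 to 17346 and 16401 to 18051. Choroid plexus genes had a median of -0.03, oligodendrocyte genes of -0.02 and endothelial genes of 0.0046, and 0 of 7, 0 of 7 and 0 of 6 were called. At an unadjusted limma p under 0.05, 2 choroid plexus genes and 1 gene each of the cortical and hippocampal, thalamic and midbrain, and hypothalamic lists were lower, and 1 cerebellar gene was higher.

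Of 20 activity-regulated genes 18 had a log2 fold change below 0 with a median of -0.05, 0 were called and 3 had an unadjusted limma p under 0.05, all 3 lower in ki/ki mice. Their summed value overlapped widely, at 9420 to 13205 in ki/ki and 10906 to 13401 in wt/wt mice. In none of the 18 combinations of gene and genotype did a single mouse stand apart from the other 7 by Dixon's criterion.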
